A study of Mus musculus with 6 samples.

Results

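Nlrp14, Padi6, H1f8 and Oosp1 are genes whose RNA or protein is stored in the egg, and each was carried by 1 probe, 4 of the 8272 probes on a spotted cDNA array of mouse clones. The probes were found by their annotation: an older RIKEN cDNA name for Nlrp14, the egg and embryo abundant peptidyl arginine deiminase for Padi6, member O of the H1 histone family for H1f8, and oocyte secretory protein 1 for Oosp1. The study compared whole ovaries of C57Bl/6J mouse pups at day 0 (under 24 h after birth), day 2 and day 4, with no other treatment or genotype, and its text dates the assembly of follicles in this strain to day 2 and their first growth to the days after it. Each of 6 arrays set RNA of a later day, labelled with Cy5, against day 0 RNA, labelled with Cy3, so that every value is a log2 ratio of the later day over day 0. There were 3 arrays per later age, each with its own later RNA. A single day 0 RNA served array 3 of both ages, while each of the remaining 4 arrays had a separate one. Neither the number of pups nor any pooling is given in the sources used here, so the p-values measure the spread between these RNA samples.

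A mouse oocyte that becomes enclosed in a primordial follicle begins to grow when its follicle is activated, and a growing oocyte makes and stores the RNA and protein that carry the embryo until its own genome is switched on. Genes whose products are supplied in this way are called maternal effect genes. Nlrp14 encodes an oocyte member of the NOD-like receptor family that the early embryo needs from its mother. Padi6 encodes a deiminase-family protein of the cytoplasmic lattices of the egg, and embryos of mothers without it stop after the first cleavage. H1f8 encodes the linker histone of the oocyte, which takes the place of the somatic H1 histones in egg chromatin. Oosp1 encodes a protein secreted by the oocyte.

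All 4 genes are placed on different chromosomes by RefSeq (GRCm38.p6): Nlrp14 on chromosome 7, Padi6 on chromosome 4, H1f8 on chromosome 6 and Oosp1 on chromosome 19. Padi6 lies next to Padi4 and Padi3, of its own family, and Oosp1 lies between Oosp2 and Oosp3. The RefSeq promoter table held 3 of the 4, all but Nlrp14. Their 250 bases before the annotated start are shown because the 3 probes had ratios above 0 on every day 4 array, and because E-boxes (CANNTG), the letters that the oocyte factor FIGLA and its bHLH partners bind, can be read in them. Capitals mark E-boxes and, in H1f8, the letters TGATTG, an element bound by the oocyte homeobox factor LHX8. The regions are chr4:140742644-140742893 on the minus strand for Padi6, chr6:115944681-115944930 on the plus strand for H1f8 and chr19:11691052-11691301 on the minus strand for Oosp1, each written 5′ to 3′ towards the start.
Padi6: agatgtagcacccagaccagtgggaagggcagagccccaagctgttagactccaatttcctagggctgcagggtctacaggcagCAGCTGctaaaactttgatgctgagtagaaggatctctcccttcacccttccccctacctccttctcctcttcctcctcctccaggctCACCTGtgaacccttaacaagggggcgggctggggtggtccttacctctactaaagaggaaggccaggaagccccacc
H1f8: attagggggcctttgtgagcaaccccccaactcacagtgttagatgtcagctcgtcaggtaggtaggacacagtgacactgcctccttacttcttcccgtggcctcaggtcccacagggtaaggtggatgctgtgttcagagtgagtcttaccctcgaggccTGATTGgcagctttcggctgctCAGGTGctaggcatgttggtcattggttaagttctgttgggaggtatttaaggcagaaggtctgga
Oosp1: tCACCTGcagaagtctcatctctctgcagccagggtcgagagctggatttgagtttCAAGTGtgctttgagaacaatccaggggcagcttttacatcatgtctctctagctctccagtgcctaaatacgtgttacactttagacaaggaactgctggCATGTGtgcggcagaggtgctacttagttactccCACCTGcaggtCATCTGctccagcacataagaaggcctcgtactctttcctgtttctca
Both strands were searched, and no match overlapped another. Padi6 held 2 E-boxes, beginning 166 and 78 bases before the start, and H1f8 held 1, beginning 66 bases before it. Oosp1 held 5, beginning 249, 194, 93, 59 and 48 bases before the start. An E-box is common in windows of this length: 66.2% of the 32851 RefSeq mouse windows held at least 1, while 1.15% held 5 or more. TGATTG stood once in the H1f8 window, beginning 88 bases before the start, and in 12.7% of all windows. The letters TAATTG, an element of the oocyte factor NOBOX (7.17% of all windows), and TATAAA, the TATA box (12.4%), were in none of the 3 windows. A match is a description of the letters, and no binding was measured.

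Which way the ratios of day 2 arrays 1 and 2 run could not be settled. Although the labels give day 2 arrays 1 and 2 the same dyes and the same ages, their log2 ratios ran opposite to each other (r = -0.675 over 8272 probes, which are not independent), and each day 2 mean below is therefore also given with either array turned. The day 4 arrays ran the same way, with r between 0.444 and 0.752. As deposited, day 2 array 1 had r = 0.27, 0.176 and 0.023 with day 4 arrays 1, 2 and 3. For day 2 array 2 these were 0.109, 0.239 and 0.225. For day 2 array 3, which shares its day 0 RNA with day 4 array 3, they were 0.348, 0.379 and 0.767. Values existed for 8272 probes on all 3 day 2 arrays and for 7775, 8272 and 5630 on day 4 arrays 1, 2 and 3, and all 4 probes had a value on every array. All arrays carried the later day in Cy5, so a dye effect of a single probe and a change against day 0 cannot be told apart, whereas an effect common to all arrays cancels between day 4 and day 2. Of 11 oocyte and germ cell markers, 3 were measured, with day 4 log2 changes of 3.38 ± 0.52 (SE, n = 3) for the growth factor Gdf9, 1.05 ± 0.21 (SE, n = 3) for its relative Bmp15 and 0.01 ± 0.13 (SE, n = 3) for the meiotic protein Sycp3. None of these passed the test with the brightest probe of each gene. A ratio gives no level, so that the presence of a cell type cannot be read from these arrays. In RNA of whole ovaries, more cells of a type and more RNA per cell cannot be told apart. Of the other cell types, 5 of 10 erythroid markers were measured and had day 4 log2 changes from -1.46 to -0.48, 4 of 8 smooth muscle markers had 0.01 to 0.71, 2 of 5 endothelial markers had -1.14 and -0.44, 4 of 7 epithelial markers had -0.96 to 1.26, 3 of 5 steroidogenic markers had 0.12 to 0.53, 2 of 5 fat markers had -0.20 and -0.08, and the only 1 of 11 granulosa markers had -0.07. No leukocyte marker was measured, none of these markers passed the test, and their part in the results was not tested.

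At day 4 the 4 egg genes had fitted log2 changes over day 0 from 0.90 to 3.64, and 2 of them, H1f8 and Nlrp14, rose. In limma's test over 8135 probes at an adjusted p under 0.05, 39 probes or 0.479% passed, all of them higher at day 4, and the median log2 change of all probes was 0.00. All 4 genes were above 0 on every day 4 array, as were 24.1% of the 5270 probes with a value on all 6 arrays. The means of Nlrp14, Padi6 and H1f8 were above 2 on the log2 scale, as were those of 0.721% of these probes. The day 4 arrays lay wholly above the day 2 arrays for Nlrp14, H1f8 and Oosp1 but not for Padi6, against 4.14% of the 5270 probes. With day 2 array 1 turned this held for the same 3 genes (9.64% of the probes), and with array 2 turned for all 4 (8.79%). As deposited, Nlrp14 and H1f8 were above 0 on all 3 day 2 arrays too, as were 9.01% of these probes, and 4.57% were above 0 on all 6 arrays. With array 1 turned, Padi6 and Oosp1 were the genes above 0 on all 3 day 2 arrays (22.1% of the probes), and with array 2 turned none of the 4 was (14.9%).

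**Figure D1:**
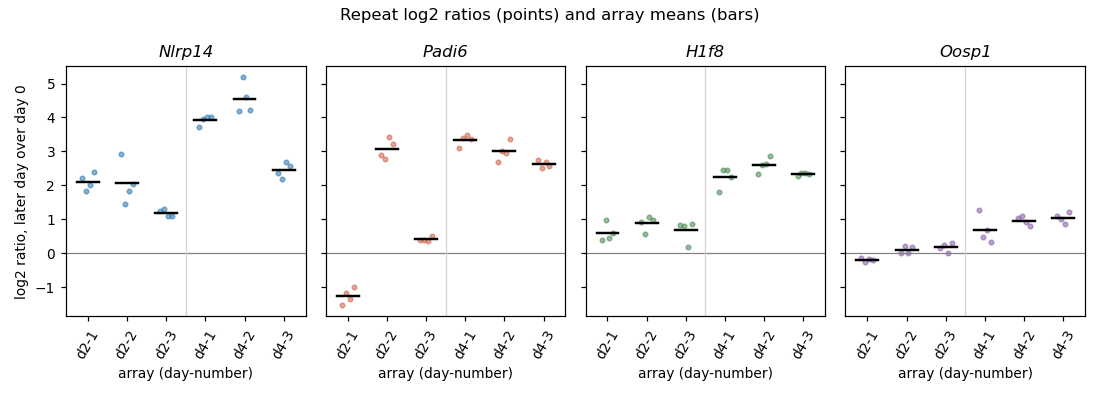
Log2 ratio of the later day over day 0 (vertical axis) of each gene on each of the 6 arrays (horizontal axis, day and array number), with the 4 repeat values as points and their mean as a bar. H1f8 sits in a narrow band at each age, 0.60 to 0.88 at day 2 and 2.24 to 2.61 at day 4, while Padi6 runs from -1.26 to 3.08 among the day 2 arrays.

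H1f8, the oocyte linker histone, rose 5.25-fold from day 0 to day 4. Its log2 ratios were 0.60, 0.88 and 0.67 on day 2 arrays 1, 2 and 3, and 2.24, 2.61 and 2.33 on day 4 arrays 1, 2 and 3. All 6 values were above 0 as deposited, the lowest day 4 array was far above the highest day 2 array, and day 2 and day 4 had SDs of 0.14 and 0.19. The log2 change at day 4 was 2.39 ± 0.12 (SE, n = 3), with an unadjusted p of 1.06e-06, the smallest of the 8135 probes tested by limma, and an adjusted p of 0.00862. Its ratio ranked 29th of 7775, 32nd of 8272 and 39th of 5630 probes from the top on day 4 arrays 1, 2 and 3. The 4 repeats on an array had SDs between 0.037 and 0.319. Leaving out day 4 array 1, 2 or 3 moved the change to 2.47, 2.28 or 2.42 and the adjusted p to 0.0544, 0.0645 or 0.0584 (limma), so that the call needs all 3 arrays. It was lost too without array 3 of both ages (adjusted p = 0.215 by limma) and with day 2 array 2 turned (adjusted p = 0.13 by limma). No probe at all passed in these settings, so the losses are not particular to H1f8.

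At day 2, H1f8 had a log2 change of 0.72 ± 0.12 (SE, n = 3), a 1.64-fold ratio, which did not pass the limma test (adjusted p = 0.609). With day 2 array 1 or array 2 turned, the change was 0.32 or 0.13. Day 4 exceeded day 2 by 1.68 ± 0.17 (SE, n = 3 per age), a 3.19-fold ratio, and this difference also had the smallest p of all probes tested by limma, 6.48e-05, but an adjusted p of 0.356. With day 2 array 1 or array 2 turned, this difference was 2.07 or 2.26. As deposited, the order of the levels was day 0, day 2, day 4, and only the difference of day 4 from day 0 passed the test.

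Nlrp14, the NOD-like receptor family gene, rose 12.5-fold from day 0 to day 4. Its log2 ratios were 2.11, 2.06 and 1.18 on day 2 arrays 1, 2 and 3, and 3.92, 4.55 and 2.46 on day 4 arrays 1, 2 and 3. Every day 4 array was above every day 2 array, although array 3 was the lowest at each age. The fitted change at day 4 was 3.64 ± 0.41 (SE, n = 3, adjusted p = 0.0329 by limma). As linear ratios the day 4 arrays gave 15.1, 23.4 and 5.50. An outlier flag, which the headers do not define, was set for Nlrp14 on day 4 array 1. With flagged values left out the change was 3.62. No other probe had a higher ratio on day 4 arrays 1 and 2, whereas on array 3 Nlrp14 ranked 28th of 5630. The replicates spread more widely than those of H1f8, with an SD of 1.07 at day 4 against 0.19. The limma call was lost without day 4 array 1, 2 or 3 (changes of 3.50, 3.19 and 4.24, adjusted p = 0.189, 0.146 and 0.0584). It was also lost when day 2 array 3 was left out (adjusted p = 0.112 by limma), without array 3 of both ages (0.215), and with day 2 array 1 or 2 turned (adjusted p = 0.134 and 0.185). Without any single day 4 array, without both arrays numbered 3 or with day 2 array 2 turned, no probe at all passed.

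At day 2, Nlrp14 had a log2 change of 1.78 ± 0.41 (SE, n = 3), a 3.44-fold ratio that did not pass the limma test (adjusted p = 0.966). With day 2 array 1 turned the mean was 0.37, and with array 2 turned it was 0.41. Day 4 exceeded day 2 by 1.86 ± 0.58 (SE, n = 3 per age, adjusted p = 1 by limma), or by 3.27 and 3.23 with array 1 or array 2 turned.

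Padi6, the deiminase-family protein of the egg lattices, had high ratios on all 3 day 4 arrays and a wide spread at day 2. Its log2 ratios were -1.26, 3.08 and 0.41 on day 2 arrays 1, 2 and 3, and 3.33, 3.01 and 2.63 on day 4 arrays 1, 2 and 3. The 3 day 4 arrays were high and close together, while day 2 array 1 was below 0 and day 2 array 2 lay within the day 4 range, so that the ages overlap as deposited. They do not overlap if array 2 is turned. As deposited the SD was 0.35 at day 4 and 2.19 at day 2, the widest of the 4 genes at that age. With day 2 array 1 or 2 turned, the day 2 SD was 1.36 or 1.75 for Padi6 and 2.20 or 2.19 for Nlrp14. From the top, its ratio ranked 3rd of 7775, 14th of 8272 and 20th of 5630 probes on day 4 arrays 1, 2 and 3. The 4 repeats on each array had SDs of at most 0.301, so the spread at day 2 lay between arrays and not between spots. The undefined outlier flags were set for Padi6 on day 2 array 2 and day 4 array 1. With flagged values left out the log2 change was 0.77 at day 2 and 3.00 at day 4.

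The fitted day 4 change of Padi6 was 2.99 ± 0.74 (SE, n = 3), a 7.93-fold ratio, and it did not pass the limma test (adjusted p = 0.24). The probe was bright, with an implied log2 intensity of 15.99, 15.66 and 15.33 in the day 4 channel of arrays 1, 2 and 3, and the sources used here do not say whether these spots were saturated, which would lower the ratio. The fit shares 1 estimate of the spread between both ages, so that the day 2 values enter this SE. Fitted on the day 4 arrays alone, the same change was 2.99 ± 0.16 (SE, n = 3, adjusted p = 0.00147 by limma), a setting in which 2.04% of all probes passed (1.63% as higher at day 4) and so did all 4 of these genes. Leaving out day 2 array 2 also brought Padi6 past the threshold (SE 0.33, adjusted p = 0.043 by limma), where 57 of 8135 probes passed. In 20 of 23 alternatives Padi6 did not pass, and its adjusted p ran up to 0.897 (limma). Without day 4 array 1, 2 or 3 the adjusted p was 0.759, 0.608 or 0.489 (limma).

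**Figure D2:**
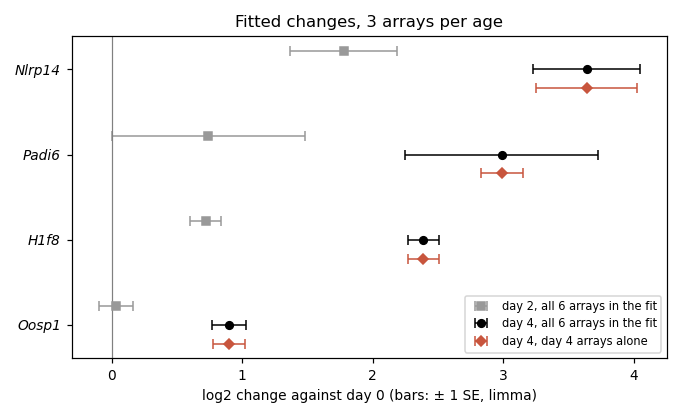
Fitted log2 change against day 0 (horizontal axis) of the 4 genes, with bars of 1 SE on each side from limma, for day 2, for day 4 with all 6 arrays in the fit, and for day 4 from its own 3 arrays. The SE of Padi6 at day 4 is 0.74 with all 6 arrays and 0.16 with the day 4 arrays alone, while that of H1f8 is 0.12 in both.

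For Padi6 at day 2 the log2 change was 0.74 ± 0.74 (SE, n = 3, adjusted p = 0.966 by limma), and its sign depended on the arrays. It was 1.59 with day 2 array 1 turned, -1.31 with array 2 turned and -0.43 without array 2. Day 4 exceeded day 2 by 2.25 ± 1.05 (SE, n = 3 per age, adjusted p = 1 by limma), which is 1.40 with array 1 turned and 4.30 with array 2 turned.

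Oosp1, the secreted protein, had the smallest ratios of the 4 genes. Its log2 ratios were -0.19, 0.10 and 0.17 on day 2 arrays 1, 2 and 3, and 0.69, 0.96 and 1.04 on day 4 arrays 1, 2 and 3. The day 2 arrays lay around 0 and the day 4 arrays all lay above them. At day 4 the change was 0.90 ± 0.13 (SE, n = 3), a 1.86-fold ratio with an adjusted p of 0.0639 by limma, just outside the threshold. It passed on the day 4 arrays alone (adjusted p = 0.0316), when day 2 array 1 was left out (0.0444) and when that array was turned (0.0339), all by limma. With all arrays as deposited, it passed under scale normalization (0.0295), with only probes valued on all 6 arrays (0.0449) and with a variance trend (0.00494), by limma. In 15 of 22 alternatives Oosp1 did not pass. The adjusted p was higher without day 2 array 3 (0.207), without day 4 array 1, 2 or 3 (0.2, 0.353 and 0.222) and with day 2 array 2 turned (0.13), and over all alternatives it ran from 0.00494 to 0.591 (limma).

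The Oosp1 probe was dim. Its mean log2 intensity over both channels was 8.17, 7.83 and 8.79 on day 2 arrays 1, 2 and 3 and 8.80, 9.11 and 8.63 on day 4 arrays 1, 2 and 3, where the lower quartile of all probes was 8.28, 7.81, 9.35, 8.48, 8.71 and 8.99 in the same order. It was thus below that quartile on day 2 arrays 1 and 3 and on day 4 array 3, and the authors' signal flag was set for it on day 2 array 3. The ratio of a dim probe can understate a change. At day 2 its log2 change was 0.03 ± 0.13 (SE, n = 3, adjusted p = 0.983 by limma), or 0.15 and -0.04 with array 1 or array 2 turned. Day 4 exceeded day 2 by 0.87 ± 0.18 (SE, n = 3 per age, adjusted p = 0.971 by limma), or by 0.74 and 0.93 with array 1 or array 2 turned.

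No probe passed the limma test for day 2 against day 0 or for day 4 against day 2 (0% of 8135 in each), where 231 and 215 probes had an unadjusted p under 0.05. Without adjustment, Nlrp14 and H1f8 were among the former, where 1.72% of all probes were higher at day 2, and H1f8, Oosp1 and Nlrp14 were among the latter, where 1.97% were higher at day 4. With day 2 array 1 or 2 turned, 1884 or 1120 of the 8135 probes, in either direction, were under that level for day 2 against day 0. Neither Nlrp14 nor H1f8 was then among them, while Padi6 was with array 1 turned. For day 4 against day 2, H1f8, Oosp1 and Nlrp14 stayed among the 931 or 721 of 8135 probes under that level in either direction. Padi6 joined them with array 2 turned. Being under an unadjusted level that many probes reach is not a call. A p that misses the threshold does not show that the ages were alike.

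The levels that the deposited ratio and mean intensity imply for each dye give both sides of each ratio. For Padi6 on day 2 array 1 the implied log2 intensity was 13.29 in the day 0 channel and 12.03 in the day 2 channel, and on array 2 it was 11.50 and 14.58, so that the channels differ in opposite senses. For H1f8 the day 0 channel held 10.32, 10.11 and 10.14 on day 4 arrays 1, 2 and 3 and the day 4 channel 12.56, 12.72 and 12.47. For Nlrp14 the day 0 channel was at 10.63 and 10.65 on day 4 arrays 1 and 2 but at 12.66 on array 3, while the day 4 channel was at 14.55, 15.20 and 15.12. Set against the median intensity of its array, the day 0 channel of Nlrp14 was 1.06, 0.86 and 2.08 above it on day 4 arrays 1, 2 and 3, and the day 4 channel 4.98, 5.41 and 4.54 above it. On array 3, where the ratio was lowest, the former was thus the highest and the latter the lowest of the 3. For H1f8, Padi6 and Oosp1 the day 0 channel was instead lowest on day 4 array 3. Against the array median it was at 0.75, 0.32 and -0.44 for H1f8 on day 4 arrays 1, 2 and 3. In the same order it was at 3.09, 2.86 and 2.13 for Padi6 and at -1.12, -1.16 and -2.47 for Oosp1. On day 2 array 3, which carried the same day 0 RNA as day 4 array 3, the implied day 0 level of Nlrp14 was 13.55. On day 2 arrays 1 and 2 it was 9.68 and 9.79. The arrays also differed in their median log2 intensity (8.74 to 10.58), and the implied levels are not scaled between arrays. Log2 ratios existed for 7775, 8272 and 5630 probes on day 4 arrays 1, 2 and 3, so their medians may not rest on the same probes.

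**Figure D3:**
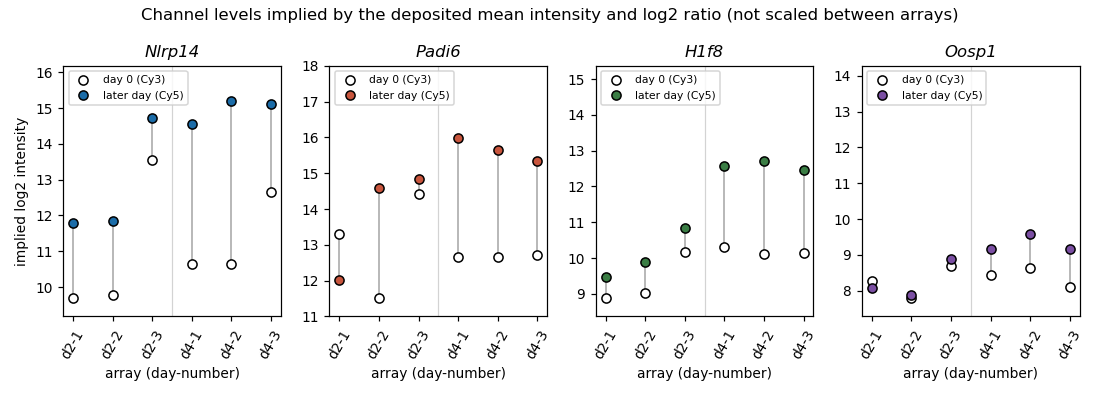
Log2 intensity of the day 0 channel (open points, Cy3) and the later-day channel (filled points, Cy5) on each array, implied by the deposited mean intensity and log2 ratio and not scaled between arrays. The grey line between them is the log2 ratio, and for Nlrp14 the day 0 points of array 3 sit at 13.55 (day 2) and 12.66 (day 4), above 9.68 to 10.65 on the other arrays.

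Array 3 of both ages shared its day 0 RNA, which allows day 4 and day 2 to be set side by side against the same reference, with 1 array per age and no test. On this pair the log2 ratio of day 4 was above that of day 2 by 2.21 for Padi6 (4.63-fold), 1.66 for H1f8 (3.16-fold), 1.28 for Nlrp14 (2.43-fold) and 0.87 for Oosp1 (1.83-fold). The median over 5630 probes was 0. Padi6 ranked 3rd, H1f8 28th, Nlrp14 55th and Oosp1 140th of these probes from the top.

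On day 2 arrays 1 and 2 the 4 genes differed in how far they followed the opposed pattern of the other probes. Of 425 probes past 1 in size on the log2 scale on both arrays, 12 had the same sign on both, and Nlrp14 was the only probe above 2 on both. Among the 42 probes within 0.2 of Nlrp14's ratio on array 1, the median on array 2 was -0.98, whereas Nlrp14 itself was at 2.06. Among 629 probes within the same distance of H1f8 the median on array 2 was -0.72, 70 were positive, and 12 reached or passed its 0.88. Padi6 was lower on array 1 and higher on array 2, as were 207 of the 425. The 151 probes near it on array 1 had a median of 1.07 on array 2, with 143 of them positive, and 2 reached or passed its 3.08. Oosp1 was near 0 on both arrays, at -0.19 and 0.10. The 3104 probes near it on array 1 had a median of 0.18 on array 2, with 2148 of them positive, so Oosp1 lay close to that median.

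**Figure D4:**
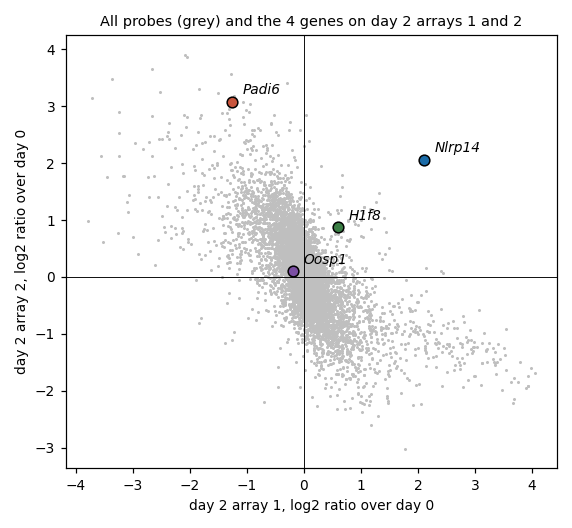
Log2 ratio over day 0 on day 2 array 1 (horizontal axis) and day 2 array 2 (vertical axis) for 8272 probes in grey and the 4 genes in colour. The grey cloud falls from upper left to lower right; Padi6 lies on its upper left side, near the edge, at -1.26 and 3.08, while Nlrp14 stands apart at 2.11 and 2.06.

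Other maternal effect genes had day 4 ratios above 0 as well, with lower values than Nlrp14, Padi6 and H1f8. Besides Nlrp14, Padi6 and H1f8, 9 of 33 listed genes were measured and 8 tested; 7 of the 8 were above 0 at day 4 with a median log2 change of 0.78, and none passed the limma test. Over all 8135 probes 49.8% were above 0, with a median of 0.00. Closest to passing the limma test were Zbed3, a partner of the subcortical maternal complex (1.98 ± 0.25, SE, n = 2, adjusted p = 0.0691), and Nlrp4a, another oocyte NOD-like receptor gene (1.54 ± 0.25, SE, n = 3, adjusted p = 0.0879). A dimmer probe of Zbed3 gave 0.87. Nlrp4f of the same family had 1.40 ± 0.41 (SE, n = 2), and the imprint-protecting zinc finger gene Zfp57 had 1.17 ± 0.18 (SE, n = 2). Of the more widely expressed members, the autophagy gene Atg5 and the cadherin Cdh1 each had 0.38, the corepressor Trim28 had 0.02 and the ubiquitin-conjugating enzyme Ube2a had -0.27. Smarca4, a chromatin remodeller, had a value on only 1 day 4 array and was not tested.

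Among the secreted and zona proteins, Gdf9, Bmp15 and the protease Plat were measured beside Oosp1, and no zona pellucida gene was. The brightest Gdf9 probe had 3.38 ± 0.52 (SE, n = 3, adjusted p = 0.0762 by limma) and a second probe passed the test at 2.93 ± 0.18 (SE, n = 3, adjusted p = 0.00874 by limma). Plat had 0.18 ± 0.11 (SE, n = 3). None of 10 other linker histone genes was measured, so that H1f8 cannot be set against the somatic H1 histones. Of 4 other deiminase genes only Padi2 was measured, and its log2 change was 0.06 ± 0.09 (SE, n = 3) at day 4, against 2.99 for Padi6.

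A list of 24 oocyte regulators, mostly of transcription and RNA but with some genes of other roles, was chosen with earlier results of these data known. Of these, 14 were measured and 12 were above 0 at day 4, with a median log2 change of 0.64. Below 0 were Gclc and Jag1 (-3.34 ± 1.82, SE, n = 2). Of all probes tested, 49.8% were above 0 and 0.479% passed. On the list 1 gene rose. That gene was Oas1d, an oocyte member of the oligoadenylate synthetase family, at 3.05 ± 0.30 (SE, n = 3, adjusted p = 0.0208 by limma). The next by p-value were the meiotic kinase Mos (0.71), the oocyte homeobox gene Obox1 (0.70), Oas1e (3.16 ± 0.65, SE, n = 2), the glutathione enzyme Gclc (-0.65) and the RNA decay adaptor Btg4 (0.95 ± 0.32, SE, n = 3), none of which passed. Dimmer probes of Btg4 passed at 1.97 and 1.52 (adjusted p = 0.0488 and 0.041 by limma). A dimmer probe of Oas1c passed at 3.13 ± 0.24 (SE, n = 3, adjusted p = 0.00954 by limma), while the brightest Oas1c probe had 1.81 ± 0.92 (SE, n = 2) and did not.

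**Figure D5:**
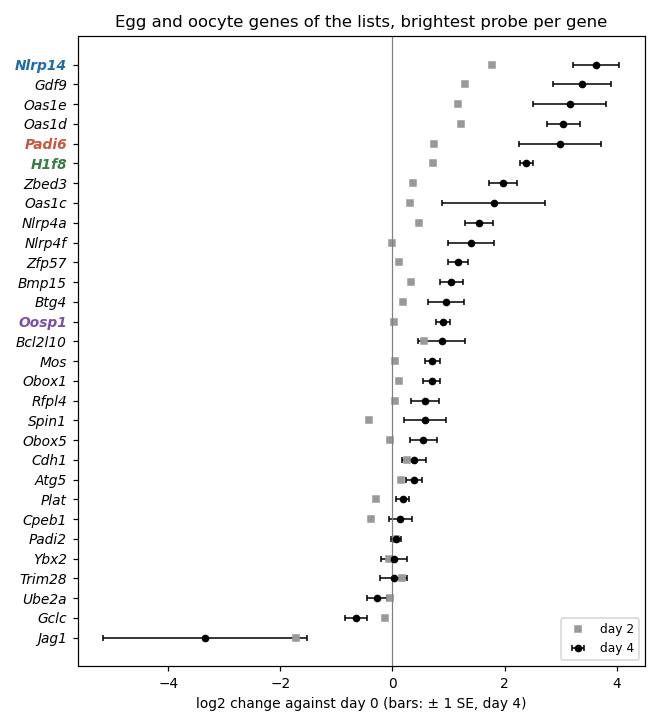
Log2 change against day 0 (horizontal axis) of the tested genes of the maternal effect, secreted, deiminase and regulator lists (vertical axis), with the brightest probe standing for each gene, day 4 as black points with bars of 1 SE and day 2 as grey squares. Nlrp14 is the topmost at 3.64, Padi6 and H1f8 follow at 2.99 and 2.39 after Gdf9, Oas1e and Oas1d, and Oosp1 lies at 0.90.

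Among the 4 genes the profiles over the 6 arrays were nearest in H1f8 and Oosp1, which differed by a root mean square of 1.17 on the log2 scale (r = 0.96). For Nlrp14 and Padi6 r was 0.59 (root mean square difference 1.62). The 6 arrays are 2 ages with 1 shared day 0 RNA, so these values describe the profiles only. Turning a day 2 array leaves a root mean square difference as it is but moves r: for Nlrp14 and Padi6 it was 0.70 or 0.89 with array 1 or 2 turned, and for H1f8 and Oosp1 0.86 or 0.90. Of 3067 probes of other named genes with all 6 values, the nearest to H1f8 were probes of the F-box gene Fbxw27 (root mean square difference 0.34, r = 0.95), Arhgef12 (0.35, r = 0.94), Slx4ip (0.40, r = 0.95), Zdhhc13 (0.44, r = 0.90) and thyrotroph embryonic factor (0.44, r = 0.86). Nearest to Nlrp14 were another Fbxw27 probe (0.83, r = 0.73) and probes of Oas1c (0.87, r = 0.85), Oas1d (1.03, r = 0.70), Gdf9 (1.09, r = 0.68) and thyrotroph embryonic factor (1.19, r = 0.98). Nearest to Padi6 was Gdf9 (0.81, r = 0.93), whose ratios on day 2 arrays 1 and 2, -0.45 and 2.49, were opposed like those of Padi6, followed by exonuclease 1 (0.93), Oas1d (0.93), Zdhhc13 (0.94) and Arhgef12 (0.97). Nearest to Oosp1 were Depdc7 (0.12, r = 0.98), Pramel48 (0.15, r = 0.98), the chemokine ligand Cxcl1 (0.18, r = 0.94), the glycolytic regulator Pfkfb3 (0.19, r = 0.92) and Obox1 (0.20, r = 0.92), all with small ratios.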

How the data were processed

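Ovary RNA was measured on 2-colour spotted cDNA arrays. The authors deposited, per the file headers, 4 repeat log2 ratios (Cy5 over Cy3) per probe and array with their mean, a mean log2 intensity a p-value that was not used, and flags that the headers do not define. Array medians between -0.003 and 0.023 show that the ratios were centred. R 1.7.1 is named per the submitters' processing notes, with no word in the sources used here on background correction or normalization. The mean of the 4 repeats was used without further normalization. Implied channel levels are the mean log2 intensity plus and minus 0.5 of the log2 ratio. limma 3.58.1 in R 4.3.3 fitted 1 mean per age to all 6 arrays, for the 8135 probes that had 2 or more arrays with values at each age, 2-sided, with Benjamini-Hochberg adjustment over all of them and a threshold of 0.05. The code was tested on simulated data. The depth of an array is not counted, and the number of arrays limits the precision. Probes were named through the annotation. All 4 genes are named whatever their values, list genes by their brightest probe (of the regulators, the 6 with the smallest day 4 p-values), and for likeness the 5 nearest named genes. The genes and lists were chosen with earlier results of these data known. Alternatives covered normalization, filters, repeats, variance, array direction, array blocks and left-out arrays.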

Additional observations from a re-analysis of the deposited data

Results flagged for a closer look

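Plat, the secreted protease on the list with Oosp1, was below 0 on all day 2 arrays (-0.33, -0.38 and -0.18) and above 0 on all day 4 arrays (0.04, 0.33 and 0.18), with means 0.48 apart on the log2 scale. By limma the difference of 0.48 ± 0.15 (SE, n = 3 per age) had an adjusted p of 1. Plat was picked from the listed genes by this very pattern, and the share of all probes that show it was not counted. The pattern holds only as deposited: with day 2 array 1 or 2 turned, the value of that array is above 0.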

How the results depend on the processing

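The number of the 4 genes called at day 4 was 2 as reported, and 2 or 3 under median centring, scale normalization, the median of the repeats, the authors' mean and value table, the filters on flags, values and dim probes, a variance trend, a robust prior and the turned sign of day 2 array 1. With that sign turned the 2 were H1f8 and Oosp1, in place of H1f8 and Nlrp14 as reported. The number was 0 when the sign of day 2 array 2 was turned and 0 when array 3 of both ages was left out. It was 4 with the arrays of the tested age alone, and 0 to 3 when single arrays were left out. The cause was not tested, beyond the fewer arrays of the fits with arrays left out. A setting without day 2 arrays 1 and 2 was added after seeing the data. Day 2 array 3 alone adds nothing to the spread, so the day 4 fit there is that of the day 4 arrays alone and no separate support. Probes called at day 4 numbered 39 as reported, 96 with scale normalization, 125 with a variance trend, 166 on the day 4 arrays alone, 71, 57 and 16 without day 2 arrays 1, 2 and 3, and 0 without any single day 4 array, without both arrays numbered 3 or with the sign of day 2 array 2 turned (339 to 897 at an unadjusted p under 0.05, all limma). None of the 4 genes passed at day 2, or for day 4 against day 2, in any setting run, and over all probes 1 passed for day 4 against day 2 with a variance trend and 0 otherwise. Signs turned at day 2 only: Padi6 was at -1.31 with array 2 turned and ran from -0.43 to 1.75 with single day 2 arrays left out, and Oosp1 was at -0.05 with flagged values left out, -0.04 with array 2 turned, -0.05 with both arrays numbered 3 left out and between -0.05 and 0.14 with single day 2 arrays left out (-0.01 for array 2). Array number was not used as a pairing in the main fit, although number 3 shares its day 0 RNA. Deviations from the mean of each age correlated at 0.365, 0.053 and 0.515 between arrays numbered 1, 2 and 3. Between arrays of unlike number these correlations ran from -0.421 to 0.091. The log2 ratios of the 2 arrays numbered 3 had r = 0.767. With a replicate block 21 probes passed at day 4, with 2 of the 4 genes called at day 4 and 0 in the other comparisons. The shared day 0 RNA as a random block could not be fitted, and the dim probe filter left Oosp1 without a value. Having 3 arrays per age and the dim Oosp1 signal limit what these data resolve.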
